A study of Homo sapiens with 6 samples.

Results

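The 10 Wnt ligand genes WNT5A, WNT5B, WNT11, WNT4, WNT3, WNT6, WNT7B, WNT9A, WNT10B and WNT2B were followed in MDA-MB231 cells with and without a short hairpin RNA against Ror1. They were chosen by gene symbol, and all 10 were found among the 57445 genes of the deposited table. The established line MDA-MB231 comes from a breast cancer without hormone receptors and HER2. The control cells (shCTL, 3 libraries) carried the lentiviral pGIPZ vector with a non-sense shRNA and the knockdown cells (shRor1, 3 libraries) the same vector with an shRNA to ROR1, and both were selected with 2 µg/ml puromycin and grown in medium with serum. One targeting sequence stands for the knockdown, and no source states that the 3 libraries of a condition came from separate cultures, so p-values measure the spread between libraries, which may be technical. The labels describe the control once as an empty vector, and the word DMSO stands in the header of the controls, so a difference in treatment cannot be told apart from the shRNA. The values are TPM, a relative transcript level that takes account of the length of the gene and the size of the library, and libraries are named by their order in the table.

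Wnt proteins are secreted, cysteine-rich glycoproteins. In the endoplasmic reticulum the acyltransferase Porcupine attaches a lipid to a conserved serine, and the carrier Wntless brings the acylated protein to the cell surface. Outside the cell a ligand binds a Frizzled receptor. With LRP5 or LRP6 as co-receptor the signal stabilizes β-catenin, and with ROR1, ROR2 or RYK it is passed to the planar polarity, RhoA, JNK and calcium branches that are called non-canonical. WNT5A is the best known ligand of the Ror receptors.

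The serine that Porcupine acylates is encoded within a stretch of 24 bases in which the 10 genes resemble each other. The stretch is shown here as a feature that these genes share, although its bases differ between them. In the coding sequence of each of the 19 human Wnt ligand genes exactly 1 place was found where the codons read cysteine, histidine, glycine, any residue, serine, glycine, serine or threonine, cysteine. The capitals mark the serine codon, and each stretch is given 5′ to 3′ on the coding strand of GRCh37.
WNT5A: tgccatggggtgTCCggctcatgt
WNT5B: tgccacggcgtcTCGgggtcctgc
WNT11: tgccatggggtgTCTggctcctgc
WNT4: tgccacggggtgTCAggctcctgt
WNT3: tgccacgggctgTCGggcagctgt
WNT6: tgccacgggctgTCGggatcatgc
WNT7B: tgccacggcgtgTCTggctcctgc
WNT9A: tgccacggcgtgTCAggctcatgc
WNT10B: tgtcatggcacaTCAggcagctgc
WNT2B: tgccatggcgtgAGTggttcctgt
WNT2B was the only one of the 10 with a serine codon of the AGT type. WNT5A and WNT5B were identical at 17 of the 24 bases, and the 45 pairs of members ranged from 13 to 22 identical bases. The stretch of WNT5A lies on chr3:55504522-55504545 (minus strand) in the last of 5 exons of the canonical transcript, and that of WNT5B on chr12:1754993-1755016 (plus strand), also in the last of 5 exons.

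Reads of 50 bases can thus tell the ligands apart. No word of 50 bases in the canonical transcript of any of the 19 Wnt genes occurred in a transcript of another Wnt gene, on either strand and without mismatches. For WNT5A, WNT5B, WNT3, WNT6, WNT9A and WNT10B every word was absent from all transcripts of other genes. The words of WNT7B were unique in 97.0% and those of WNT11 in 91.5%, and those of WNT4 in 99.8%. The exception was WNT2B (chr1:113009163-113072787, plus strand), where 76.0% were unique. Its long last part overlaps exons of ST7L on the opposite strand, and 2571 of its 11081 words (23.2%) also occur in ST7L transcripts. The library kit was a stranded one, but no source used here states that the counting did.

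As the check of the knockdown, ROR1 had 15.42, 13.49 and 20.56 TPM in shCTL and 9.34, 11.93 and 14.85 TPM in shRor1, so the groups overlapped (log2 fold change -0.43, standard error 0.20, limma adjusted p = 0.984). In these bulk libraries fewer cells with a transcript and less of it per cell cannot be told apart. Transcripts of the mesenchymal markers VIM, CD44, CAV1 and AXL stood at 347 to 2920 TPM in every library, and ZEB1 of the same list at 23.1 to 26.8 TPM. The hormone receptor genes ESR1 and PGR stayed at or below 0.21 TPM. Of the other luminal markers, EPCAM had 12.6 to 15.8 TPM, FOXA1 3.72 to 5.45 TPM and GATA3 3.83 to 4.69 TPM. CDH1, the cadherin of epithelia, had 1.01, 0.8 and 1.22 TPM in shCTL and 1.36, 1.41 and 1.47 TPM in shRor1, without overlap (limma adjusted p = 0.984). Such a separation with shRor1 higher was found in 6.48% of all tested genes. The keratins of basal epithelium KRT5, KRT14 and KRT17 did not exceed 0.2 TPM, so that the label basal had the mesenchymal markers but not these keratins behind it, and some luminal markers were present at low levels. Of 5 genes of blood, endothelial and fibroblast cells, 4 were found in the table. PTPRC of blood cells stood at 0.07 to 0.39 TPM, and the summed level of the 4 was 9.15 to 16.3 TPM in shCTL and 9.24 to 14.4 TPM in shRor1, mostly COL1A1.

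Among the ligands, WNT5B was the most abundant, and the non-canonical and the β-catenin class contributed about equally. WNT5B had a mean of 11.0 TPM over the 6 libraries, which is above 46.8% of all tested genes. It lay above WNT5A in all 6 libraries without overlap of their ranges, with a ratio of the means of 2.03. WNT5A (mean 5.42 TPM), WNT7B (4.71 TPM), WNT3 (4.15 TPM) and WNT10B (3.41 TPM) followed, and the ranges of neighbours in this order overlapped. WNT5A exceeded WNT7B in 6 of 6 libraries, WNT7B exceeded WNT3 in 5 and WNT3 exceeded WNT10B in 4. WNT2B (1.56 TPM) and WNT9A (1.5 TPM) came next, and WNT2B was the higher in 4 of 6 libraries. Neither this pair nor WNT3 and WNT10B could thus be firmly ordered. A wide step separated WNT9A from WNT11 (0.163 TPM), whose range overlapped that of WNT4 (0.107 TPM). WNT11 exceeded WNT4 in only 2 of 6 libraries, so this pair could not be firmly ordered either. WNT6 was listed at 0 in every library.

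**Figure D1:**
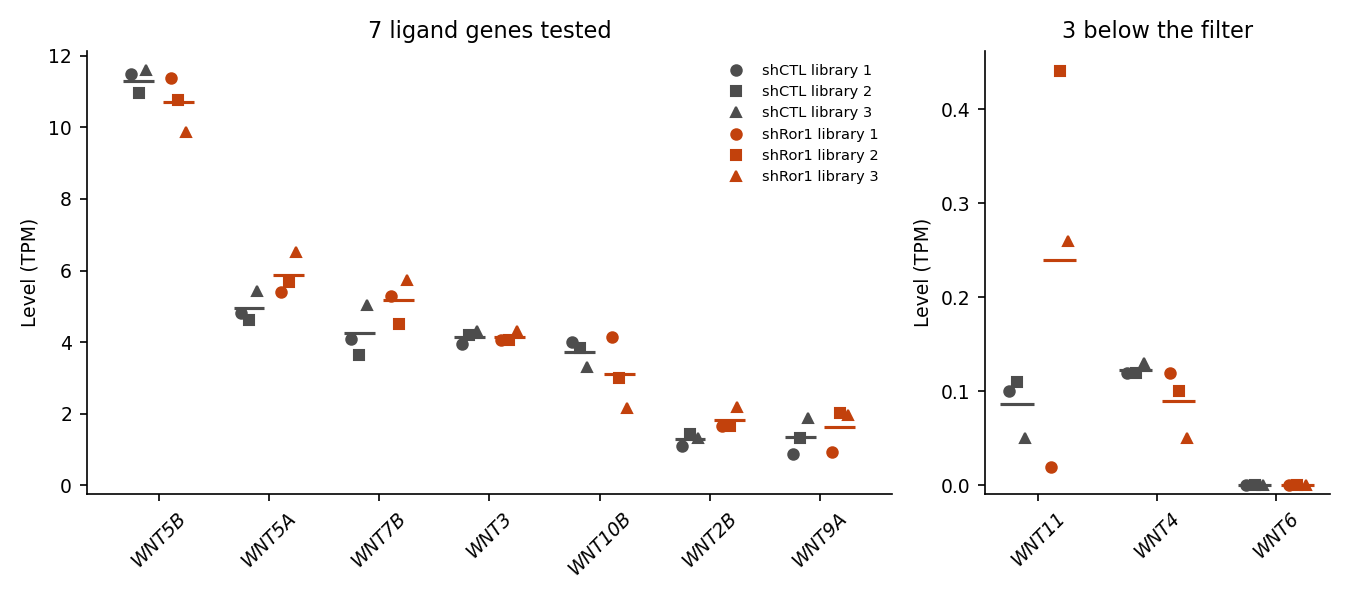
Level in TPM (y axis) of the 10 ligand genes (x axis) in each of the 3 shCTL (grey) and 3 shRor1 (orange) libraries, with the group mean as a bar and the symbol giving the order of the library in the table. WNT5B sits between 9.88 and 11.6 TPM, above all other ligands, and the only tested ligand whose groups do not overlap is WNT2B.

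The summed level of all 19 Wnt ligand genes came to 31.24, 31.07 and 33.97 TPM for shCTL and to 33.97, 33.33 and 34.11 TPM for shRor1. The 10 members made up 96.7% to 97.7% of it. WNT5A, WNT5B, WNT11 and WNT4, the non-canonical class, held between 50.6% and 54.1% of the transcripts of the 10, almost all of it from WNT5A and WNT5B. WNT5B alone took 34.1% to 36.7% of the sum of all 19 in shCTL and 29.0% to 33.5% in shRor1. These shares are given without a test.

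**Figure D2:**
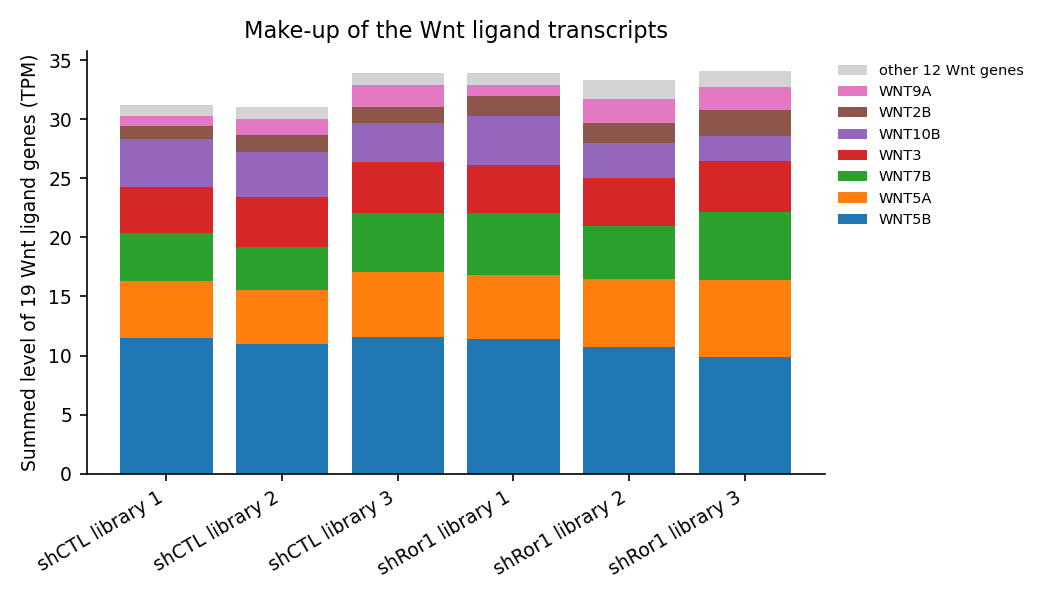
Summed level of the 19 Wnt ligand genes in TPM (y axis) in each library (x axis), divided into the 7 tested ligands and, in grey, the other 12 Wnt genes. The height of the bars stays between 31.1 and 34.1 TPM, and WNT5B and WNT5A fill the lower part of each bar.

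The comparison of shRor1 with shCTL took in genes that reached 1 TPM in 3 or more libraries. Of the 16554 genes that passed, 7 were ligands of the list (WNT5A, WNT5B, WNT3, WNT7B, WNT9A, WNT10B and WNT2B), and WNT11, WNT4 and WNT6 stayed below. With limma on log2(TPM + 1) and Benjamini-Hochberg adjustment, 0 of the 7 ligands had an adjusted p below 0.05, and so did 0 of all 16554 genes (0.0%). At an unadjusted p below 0.05 there were 0 of the 7 ligands, against 472 of all genes (2.85%), of which those higher in shRor1 made up 2.31% and those lower in shRor1 0.544% of the genes tested. The median log2 fold change of the 7 was 0.158 and that of all tested genes 0.054. Counted without a tolerance, 5 of the 7 had a log2 fold change above 0, against 67.0% of all tested genes, and 1 of these was WNT3 at 0.00. The pseudocount of 1 makes the changes of genes with few TPM look smaller.

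WNT5A (ENSG00000114251.9, chr3:55499743-55524567, minus strand) is the prototype of the non-canonical ligands. It had 4.80, 4.63 and 5.44 TPM in shCTL and 5.41, 5.69 and 6.53 TPM in shRor1. The groups overlapped only in that the lowest shRor1 library lay just below the highest control. The shCTL mean was 4.96 ± 0.427 TPM (SD, n = 3) and the shRor1 mean 5.88 ± 0.583 TPM (SD, n = 3). The log2 fold change was 0.21 (95% interval -0.08 to 0.49, limma adjusted p = 0.984, exact two-sided permutation p = 0.2, where 3 against 3 libraries cannot go below 0.1).

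WNT5A-AS1, a long noncoding RNA, lies within the annotated WNT5A locus on the opposite strand (chr3:55521727-55522336, plus strand). It begins 393 bases from the first base of the canonical WNT5A transcript and runs in the opposite direction. It shares no exon with WNT5A in the annotation used. Its level was 1.04, 1.14 and 1.22 TPM in shCTL and 1.62, 2.55 and 1.63 TPM in shRor1, so that all shRor1 libraries lay above all controls. The same separation held for 6.48% of all tested genes, and 2.31% were higher in shRor1 at an unadjusted limma p below 0.05. On the log2 scale WNT5A-AS1 differed by 0.45 (standard error 0.16, limma unadjusted p = 0.0252, adjusted p = 0.984). With the TPM of both genes added, a setting chosen after the data were seen, the log2 fold change was 0.31 (standard error 0.12, limma unadjusted p = 0.0284, adjusted p = 0.984), against 0.21 for WNT5A alone.

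WNT5B (ENSG00000111186.8, chr12:1639057-1756378, plus strand) is the close relative of WNT5A. It had 11.48, 10.95 and 11.60 TPM in shCTL and 11.38, 10.75 and 9.88 TPM in shRor1. The groups overlapped, with the first shRor1 library inside the range of the controls and the other two below it. Its log2 fold change was -0.08 (95% interval -0.31 to 0.14, limma adjusted p = 0.984), the narrowest interval of the 7. FBXL14, an F-box gene on the opposite strand within the WNT5B locus, shares no exon with it and differed by -0.04 on the log2 scale (standard error 0.13).

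WNT11 and WNT4, ligands known from cell movements in the embryo and from kidney and mammary gland development, were barely present. WNT11 had 0.10, 0.11 and 0.05 TPM in shCTL and 0.02, 0.44 and 0.26 TPM in shRor1. The lowest and the highest of all 6 values were both shRor1 libraries. WNT4 had 0.12, 0.12 and 0.13 TPM in shCTL and 0.12, 0.10 and 0.05 TPM in shRor1. In the fit without a filter on expression their log2 fold changes were 0.18 (standard error 0.12) and -0.04 (standard error 0.04), with limma adjusted p = 0.921 for both. TPM hold no read counts, and no counting error was computed for values this low.

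Among the ligands of the β-catenin class, WNT3 (chr17:44839872-44910520, minus strand), a ligand needed for the body axis and limbs, was the steadiest. It had 3.95, 4.19 and 4.30 TPM in shCTL and 4.07, 4.06 and 4.31 TPM in shRor1, with a mean of 4.15 TPM in both. Its log2 fold change was 0.00 (95% interval -0.25 to 0.25), and its sign turned with quantile normalization (-0.10) and median ratio scaling (-0.06). WNT9B lies on the opposite strand, begins 47 bases from the start of the WNT3 locus and points away from it. It had 0.45, 0.38 and 0.45 TPM in shCTL and 0.64, 0.53 and 0.56 TPM in shRor1. Its groups did not overlap, but all values were below the filter, and in the fit without filter its log2 fold change was 0.14 (standard error 0.08, limma unadjusted p = 0.133, adjusted p = 0.921).

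WNT7B (chr22:46316246-46373042, minus strand), known from lung, kidney and vessel development, had 4.08, 3.63 and 5.04 TPM in shCTL and 5.28, 4.52 and 5.73 TPM in shRor1. The third control lay above the second shRor1 library. The mean was 4.25 ± 0.720 TPM (SD, n = 3) against 5.18 ± 0.612 TPM (SD, n = 3), with a log2 fold change of 0.24 (95% interval -0.10 to 0.58, limma adjusted p = 0.984, exact two-sided permutation p = 0.2).

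WNT10B (chr12:49359123-49365518, minus strand), which holds back fat cell formation and promotes bone formation, had 4, 3.85 and 3.32 TPM in shCTL and 4.15, 2.99 and 2.15 TPM in shRor1. The first shRor1 library was the highest of all 6 and the third the lowest. The log2 fold change was -0.23 (95% interval -0.68 to 0.21, limma adjusted p = 0.984). It was -0.06 without the third and -0.41 without the first shRor1 library. Without the first shRor1 library the unadjusted limma p of WNT10B was 0.0421. In that fit 1720 of 16554 genes had an unadjusted p below 0.05, against 472 with all libraries.

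WNT9A (chr1:228106357-228135633, minus strand), a ligand of joint formation, had 0.88, 1.31 and 1.87 TPM in shCTL and 0.93, 2.02 and 1.97 TPM in shRor1. Both groups held a value below 1 TPM and at least one near 2 TPM. For WNT9A the log2 fold change was 0.16 (95% interval -0.38 to 0.70, limma adjusted p = 0.984), the widest interval of the 7. It ran from 0.01 without the first shCTL library to 0.37 without the first shRor1 library.

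WNT2B, a ligand of eye and lung development, was the only tested ligand whose groups were apart. It had 1.10, 1.44 and 1.33 TPM in shCTL and 1.66, 1.67 and 2.18 TPM in shRor1, so 1 of 7 ligands had all shRor1 libraries above all controls, against 6.48% of all tested genes. In the other direction there were 0 of 7 ligands, against 1.30% of all tested genes. The shCTL mean was 1.29 ± 0.173 TPM (SD, n = 3) and the shRor1 mean 1.84 ± 0.297 TPM (SD, n = 3). The log2 fold change was 0.31 (95% interval -0.02 to 0.63, limma unadjusted p = 0.0625, adjusted p = 0.984, exact two-sided permutation p = 0.1, the smallest possible). Without the mean-variance trend in the fit the unadjusted limma p of WNT2B was 0.0291. In that fit 580 of 16554 genes had an unadjusted p below 0.05, against 472 with the trend. ST7L, whose exons it overlaps, had 51.06, 50.79 and 56.96 TPM in shCTL and 49.39, 49.5 and 53.88 TPM in shRor1, with a log2 fold change of -0.05 (standard error 0.08). The part of the shared sequence in the WNT2B values was not tested. CTTNBP2NL, which ends 3085 bases before WNT2B on the same strand, had 24.74 to 28.01 TPM in shCTL and 27.96 to 35.05 TPM in shRor1 (log2 fold change 0.17, standard error 0.11).

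WNT6, a ligand of the early somite epithelium, was listed at 0 TPM in all 6 libraries and gave no comparison. Of the other 9 Wnt ligand genes, WNT8A was also listed at 0 throughout. WNT1, WNT2, WNT3A, WNT7A and WNT16 did not exceed 0.08 TPM, and WNT8B and WNT10A did not exceed 0.27 TPM. None of the 9 passed the filter, and WNT9B was the highest of them.

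**Figure D3:**
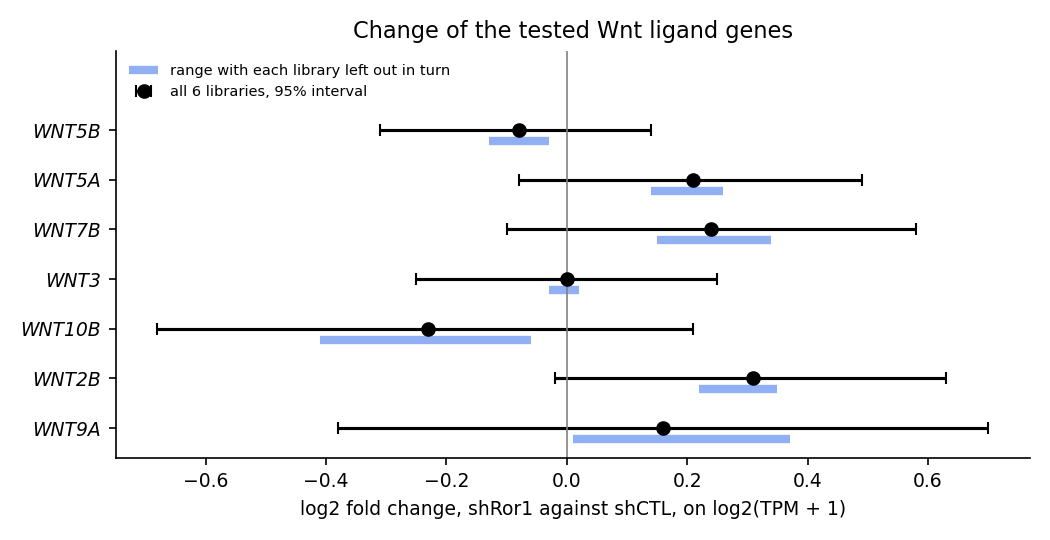
Log2 fold change of shRor1 against shCTL on log2(TPM + 1) (x axis) for the 7 tested ligands (y axis), as points with the 95% interval of the limma fit, and in blue the range over the fits that leave out each library in turn. Every interval includes 0, from the narrow one of WNT5B (-0.31 to 0.14) to the wide one of WNT9A (-0.38 to 0.70).

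The ligands were also set beside the main axis of difference between the libraries, as a description without a test, and those named were chosen after their values were seen. The leading component of all tested genes other than Wnt ligands, which held 35.6% of their variance, gave scores of 15.3, 18.6 and -14.1 to the shCTL libraries and 10.5, 0.3 and -30.5 to the shRor1 libraries. WNT10B had its lowest level (2.15 TPM) in the library with the lowest score, the third of shRor1, and 3.85 to 4.15 TPM in the 3 libraries with the highest scores. WNT9A went the other way, with 0.88 to 1.31 TPM in these 3 libraries and 1.87 to 2.02 TPM in the other 3. WNT5A and WNT7B also had their highest level in the library with the lowest score (6.53 and 5.73 TPM) and their lowest in the library with the highest (4.63 and 3.63 TPM). The component and the condition are not independent in 6 libraries, since the shRor1 libraries have the lower scores on average. With the leading component of the residuals as a covariate, a setting chosen after the data were seen, the standard error of WNT5A went from 0.12 to 0.09, that of WNT7B from 0.15 to 0.10, that of WNT10B from 0.19 to 0.14 and that of WNT2B from 0.14 to 0.13. The unadjusted limma p was 0.0521 for WNT5A, 0.0526 for WNT2B, 0.0576 for WNT7B and 0.147 for WNT10B, each with an adjusted p of 0.732. For WNT5B, WNT9A and WNT3 the unadjusted limma p was 0.358, 0.468 and 0.998. This component came from the residuals of the same fit, so the log2 fold changes did not move and smaller standard errors are partly built in. Of all tested genes, 1060 had an unadjusted limma p below 0.05 with it, against 472 without. These p-values are therefore a description.

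**Figure D4:**
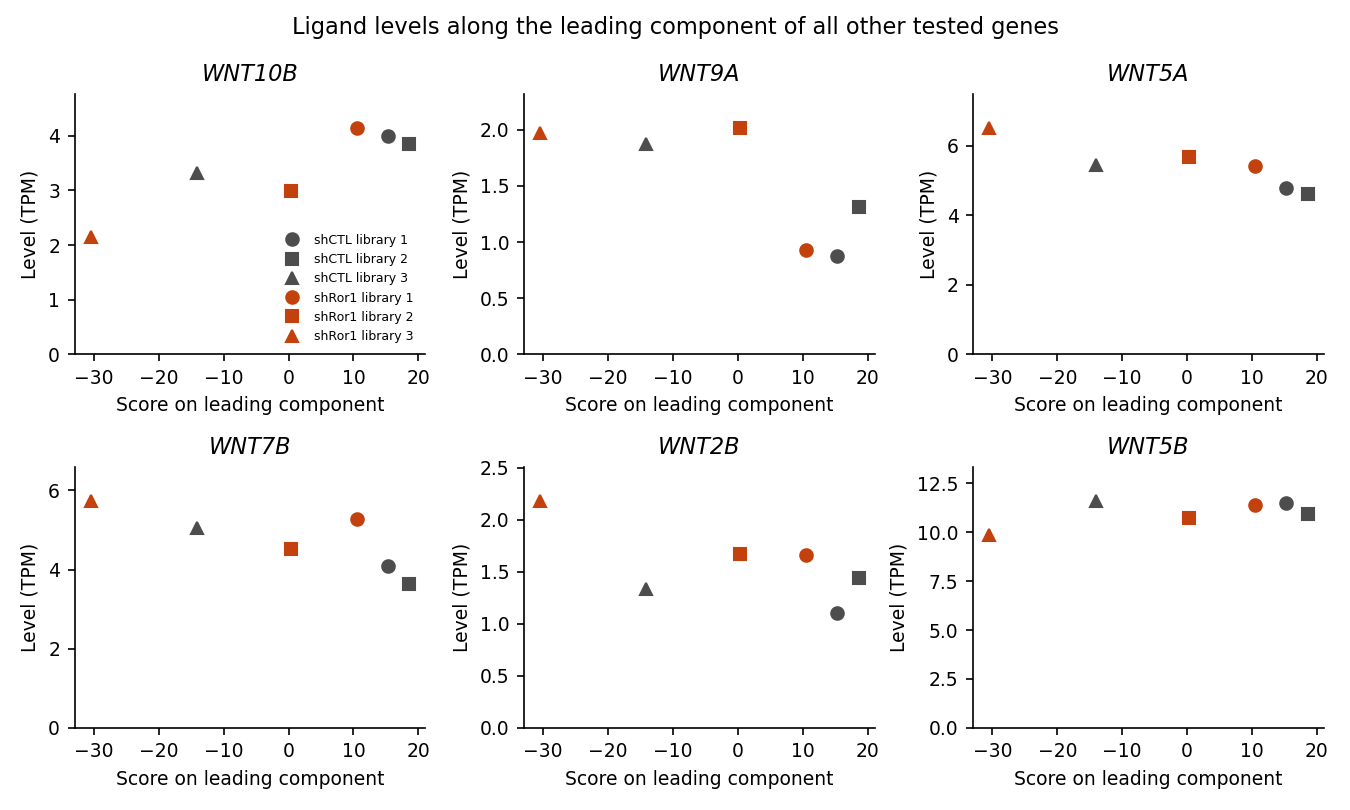
Level in TPM (y axis) of 6 tested ligands in each library against the score of the library on the leading component of all other tested genes (x axis, on the log2 scale), shCTL in grey and shRor1 in orange. WNT10B has 2.15 TPM at a score of -30.5 and 3.85 TPM at the highest score of 18.6, while WNT9A and WNT5A have 1.97 and 6.53 TPM at the lowest and 1.31 and 4.63 TPM at the highest score.

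The genes that modify, carry, receive or bind the ligands were compared in the same fit. Of 14 genes of acylation, secretion and release, 11 were tested and 0 had an adjusted p below 0.05 (10 with a log2 fold change above 0, against 67.0% of all tested genes, and a median of 0.072, against 0.054). PORCN, the acyltransferase, had 4.38, 4.51 and 4.13 TPM in shCTL and 5.22, 5.42 and 4.68 TPM in shRor1, without overlap of the groups (log2 fold change 0.19, standard error 0.11, limma adjusted p = 0.984). All shRor1 libraries lay above all controls in 6.48% of all tested genes as well. WLS, the carrier, stood at 49.1 to 61.0 TPM in both groups together. The most abundant of the list were TMED2 (mean 284 TPM), a cargo receptor of the early secretory pathway, SCD (283 TPM), which makes the lipid that is attached, and SNX3 (209 TPM), a sorting nexin that returns Wntless from endosomes. SCD varied between libraries from 199 to 401 TPM, again highest in the third library of each group. NOTUM, the enzyme that removes the lipid, was at most 0.16 TPM. Of the same list, TRABD2A stood at 18.6 to 20.4 TPM and TRABD2B was listed at 0 in every library.

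Of 17 receptor genes, 13 were tested, with 0 at an adjusted p below 0.05 and a median log2 fold change of 0.051. PTK7 (mean 63.2 TPM), RYK (58.3 TPM) and LRP5 (57.6 TPM) were the most abundant, and FZD6 (51.5 TPM) led the Frizzled receptors. ROR2 did not exceed 0.01 TPM, while ROR1 passed the filter. LRP5 had 38.65, 42.21 and 67.40 TPM in shCTL and 38.42, 58.37 and 100.59 TPM in shRor1, again highest in the third library of each group (log2 fold change 0.34, standard error 0.34).

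Of 13 secreted or cell-surface binders and antagonists, 3 were tested, DKK1, GPC6 and DKK3, with 0 at an adjusted p below 0.05. GPC6, a glypican of the cell surface, had 5.01 to 6.29 TPM in shCTL and 5.01 to 8.71 TPM in shRor1. DKK1, which blocks LRP5 and LRP6, stood at 321 to 346 TPM in every library, far above every ligand. Of the secreted proteins that bind Wnt proteins directly, SFRP1, SFRP2, SFRP4, FRZB and WIF1 did not exceed 0.09 TPM and SFRP5 had 0.14 to 0.2 TPM. Of 12 feedback targets of the β-catenin branch, 8 were tested, with 0 at an adjusted p below 0.05. A log2 fold change above 0 was found in 3 of them, against 67.0% of all tested genes. Their median was -0.027, against 0.054 for all tested genes, and this difference was not tested. AXIN2, the usual reporter gene of this branch, had 2.15, 2.43 and 2.69 TPM in shCTL and 2.02, 2.79 and 2.56 TPM in shRor1 (log2 fold change 0.01, standard error 0.14). The most abundant of these targets were DKK1, CCND1 (mean 227 TPM) and MYC (93.8 TPM). None of the tested genes on the 4 lists had an unadjusted p below 0.05.

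**Figure D5:**
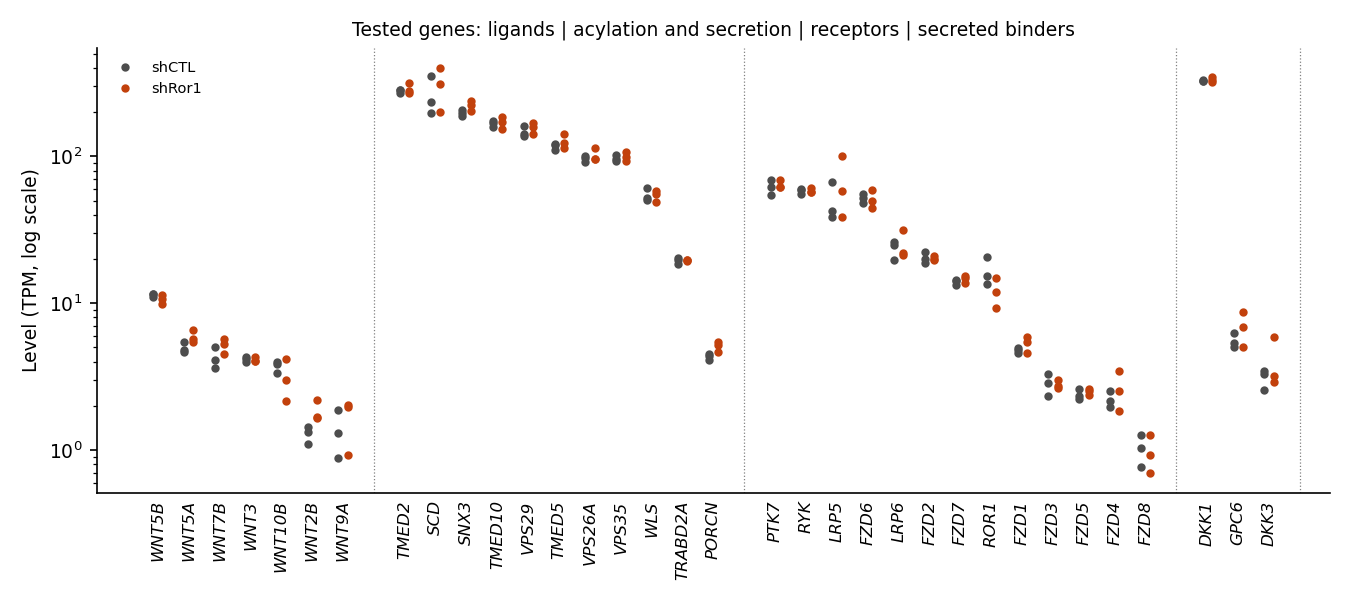
Level in TPM on a log scale (y axis) of the 7 tested ligands and the tested genes of acylation and secretion, of the receptors and of the secreted or cell-surface binders (x axis, separated by dotted lines), each point 1 library, shCTL in grey and shRor1 in orange. The ligands lie below 12 TPM, while DKK1 lies between 321 and 346 TPM and the genes of acylation and secretion spread from PORCN (4.13 to 5.42 TPM) to SCD (up to 401 TPM).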

How the data were processed

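Total RNA of 6 libraries was sequenced with single reads of 50 bases (the labels call the molecule polyA RNA). Per the labels and the submitters' processing notes, the authors used CASAVA 1.8.2, FastQC 0.10.0, STAR and RSEM 1.2.5 on GRCh37, and edgeR. The deposited values are TPM with 2 decimals, although the table is named for expected counts. TPM hold no counts, so no counting error was computed and the negative binomial test of the study was replaced by limma 3.58.1 in R 4.3.3 (lmFit, eBayes with trend) on log2(TPM + 1), for genes that reached 1 TPM in 3 or more libraries, with Benjamini-Hochberg adjustment and a threshold of 0.05. The fit was tested on simulated data. Exact permutation tests used scipy 1.17.1. Columns were assigned to conditions by their header, which has no replicate number, and 0 columns were unused. Symbols were found for 55022 of 57445 gene IDs. Sequences, positions and neighbours within 5000 bases came from GENCODE genes and transcripts mapped to GRCh37. This annotation differs from the Ensembl release that the paper names for its read mapping. The transcript models behind the TPM can therefore differ from those used for unique words and shared exons.

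The members and lists were chosen with earlier results of these data known. Named were the 19 Wnt genes, ROR1, the 3 most abundant genes of each list and any with an unadjusted p below 0.05, neighbours of the tested ligands, the 3 genes most like WNT5B, and marker genes. PORCN, WLS, NOTUM, TRABD2A, TRABD2B, FZD6, ROR2, AXIN2, SFRP1, SFRP2, SFRP4, SFRP5, FRZB and WIF1 were named beyond this rule after their values were seen. Alternatives were no filter, a mean of at least 5 TPM, a pseudocount of 0.1, quantile normalization, median ratio scaling, no trend, array weights and leaving out each library, and, chosen after the data were seen, a residual component as covariate and the sum of WNT5A and WNT5A-AS1.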

Additional observations from a re-analysis of the deposited data

How the results depend on the processing

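Of 94 values of the tested ligands under alternatives, 90 kept their direction and stayed on the same side of the threshold. The 4 that turned sign were all of WNT3, whose value lies at 0: -0.096 with quantile normalization, -0.064 with median ratio scaling, -0.028 without shCTL library 1 and -0.022 without shRor1 library 3 (range over the fits that leave out each library -0.028 to 0.022). The cause was not tested, and no adjusted p of a ligand was below 0.473. Leaving out each library gave 0.14 to 0.26 for WNT5A, -0.13 to -0.03 for WNT5B, 0.15 to 0.34 for WNT7B, and 0.22 to 0.35 for WNT2B. The log2 fold change of WNT2B was 0.48 with a pseudocount of 0.1 and 0.23 with quantile normalization, and WNT2B was not in the fit of genes with a mean of at least 5 TPM, which kept only WNT5A and WNT5B. The number of genes with a limma adjusted p below 0.05 was 0 with all libraries and ranged from 0 to 1 over the fits that leave out each library. The 1 gene, without shRor1 library 3, was RPL39P3, a ribosomal protein pseudogene with many near-identical copies and therefore uncertain. The genes with an unadjusted p below 0.05 numbered 472, 1363 without filter, 227 with a mean of at least 5 TPM, 859 with array weights, 1060 with the residual component, 1720 without shRor1 library 1, 278 without shCTL library 2 and 289 without shCTL library 1. The median log2 fold change of all tested genes was 0.054 as deposited, 0.001 after quantile normalization and -0.017 after median ratio scaling. The difference in summed Wnt TPM, 1.71 as deposited, was -0.08 with median ratio scaling and 1.2 to 2.65 when each library was left out (2.65 without shCTL library 3). In the order of levels, 6 of 10 members kept their place with the shCTL libraries alone (WNT9A above WNT2B and WNT4 above WNT11), and 8 to 10 did when each library was left out, with 8 without shRor1 library 1. No paired analysis was possible because replicate numbers are missing from the column headers, so the replicate block was not run. Counting error, which weighs most on the ligands below 1 TPM, was not computed, since TPM hold no read counts.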

Other observations

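Ratios between ligands of the same library do not depend on its scaling. Of the 21 pairs among the 7 tested ligands, 4 had groups that did not overlap. They were chosen after their values were seen and are given without a test, and they are not independent, since WNT5A, WNT5B, WNT3 and WNT2B each stand in 2 of the 4. WNT5B over WNT5A was 2.39, 2.37 and 2.13 in the shCTL libraries and 2.10, 1.89 and 1.51 in the shRor1 libraries, so that WNT5B was the more abundant of the pair in every library and by less in shRor1. WNT5B over WNT2B was 8.92 ± 1.43 (SD, n = 3) in shCTL and 5.94 ± 1.24 (SD, n = 3) in shRor1. WNT5A over WNT3 was 1.2 ± 0.0819 (SD, n = 3) and 1.42 ± 0.0937 (SD, n = 3), and WNT3 over WNT2B was 3.24 ± 0.341 (SD, n = 3) and 2.29 ± 0.268 (SD, n = 3).

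The tested genes most like WNT5B over the 6 libraries were NECTIN1, a cell adhesion molecule (Pearson r = 0.994), LAMTOR1, an anchor of the lysosomal Ragulator complex (r = 0.988), and GPR89B (r = 0.987), which has the near-identical copy GPR89A and is therefore uncertain. The libraries share 2 conditions and their differences in composition, and 135 genes reached an r of at least 0.9 and 193 an r of -0.9 or below, so these values are a description.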
